A study of Rattus norvegicus with 57 samples.

Results

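Aminoacyl-tRNA synthetases are the enzymes that join each amino acid to its own transfer RNA. The genes taken here were those with a single symbol made of an amino acid letter and ars, ars1 or ars2, together with Farsa, Farsb and Eprs1. They numbered 32 of the 10725 genes tested, and each was read from its probe set of highest mean log2 signal. They comprised 17 genes of the cytosolic enzymes, 13 of the mitochondrial enzymes, whose symbols end in 2, and 2 genes that serve both compartments, Gars1 and Kars1. The genes Lars2, Mars2 and Pars2 were not analysed here.

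The study measured liver RNA of male Han Wistar [Crl:WI(Han)] rats aged 8 to 10 weeks on Affymetrix expression arrays. The rats received methapyrilene, an antihistamine known as a liver toxicant of the rat, by mouth each day in carboxymethylcellulose at 30 or 80 mg/kg, and controls received the vehicle. Livers were taken after 4, 8 or 15 days, or on day 24, which followed 14 days of dosing and 10 days without it. Each of the 12 groups of dose and day was assigned 6 rats and had 4 or 5 arrays, 57 in all. The labelled tissue was borne out by 7 measured hepatocyte markers, whose summed signal on day 15 was 36685 to 47129 in controls and 30348 to 43815 at 80 mg/kg.

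In the cytosol the synthetases supply the ribosomes with charged tRNA, and several of them are held with the scaffold proteins Aimp1, Aimp2 and Eef1e1 in a multisynthetase complex. The mitochondrial enzymes are encoded in the nucleus by separate genes in most cases and serve translation of the few proteins encoded by mitochondrial DNA. Many cytosolic synthetase genes are known targets of ATF4, a transcription factor made when amino acids run short or unfolded protein accumulates in the endoplasmic reticulum.

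At 80 mg/kg 8, 12 and 15 of the 17 cytosolic synthetases were called higher on days 4, 8 and 15 and none on day 24, while mitochondrial ones were called in both directions. A gene was called when its limma p, adjusted by Benjamini-Hochberg over all genes tested, was under 0.05. On day 4, 13 synthetases were called higher and 0 lower, where 18.3% of all genes were called higher and 9.19% lower. On day 8, 17 were higher and 4 lower, against 34.2% and 16.6% of all genes. On day 15, 23 were higher and 4 lower, against 38.8% and 20.5%. On day 24, 0 were higher and 2 lower, against 7.15% and 3.08%. With limma p unadjusted and under 0.05, 1 synthetase was lower on day 4 and 1 was higher on day 24. Counting both directions, 15 and 7 of the 32 synthetases were under 0.05 on those days, where 4050 and 2811 of all 10725 genes were. The control arrays of a day served both doses, and the comparisons of the days used different arrays.

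Of the cytosolic genes, 0, 1 and 1 were called lower on days 4, 8 and 15, the 1 being Tars1. Their median change was 0.25, 0.44 and 0.65 on the log2 scale, where the median of all genes was 0.08, 0.15 and 0.16. Of the 13 mitochondrial genes, 3, 3 and 6 were called higher on those days and 0, 3 and 3 lower, with medians of 0.039, -0.10 and 0.24. Of all genes, 18.3%, 34.2% and 38.8% were called higher on those days and 9.19%, 16.6% and 20.5% lower. Quantile normalization moved the mitochondrial medians of days 8 and 15 to -0.28 and 0.040, and a shift of each array to a common median moved those of days 4 and 8 to -0.093 and -0.32. Both genes of the shared group were called higher on all 3 days of dosing. Under the shift to a common median, Kars1 was not called on day 4 (limma adjusted p 0.486) or day 8 (0.251). Gars1 was then not called on day 4 (limma adjusted p 0.0587). On day 24 the medians were -0.074 for the cytosolic and -0.11 for the mitochondrial genes.

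**Figure D1:**
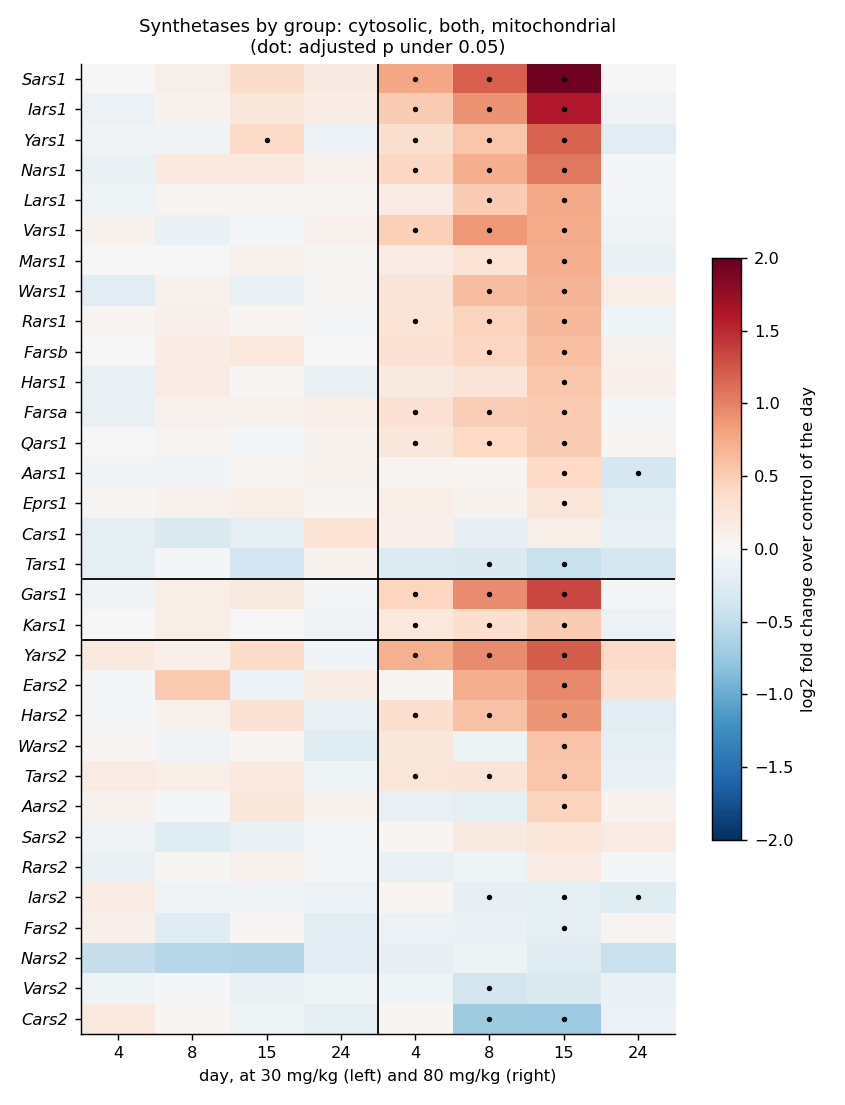
Log2 fold change over the control of the same day for the 32 synthetases (rows) at 30 mg/kg (left 4 columns) and 80 mg/kg (right 4 columns) on days 4, 8, 15 and 24, with cytosolic genes on top, Gars1 and Kars1 in the middle and mitochondrial genes below; a dot marks an adjusted p under 0.05. The dots gather in the 80 mg/kg columns of days 4 to 15. There, 15 cytosolic and 6 mitochondrial genes were called higher on day 15, where 38.8% of all genes were. A single dot lies at 30 mg/kg, Yars1 on day 15.

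The split of the mitochondrial group depended on how the arrays were scaled. The deposited scaling left the median gene 0.16 higher at 80 mg/kg on day 15. Quantile normalization left it 0.040 higher, and a shift of each array to a common median left it 0.025 higher. Under both, the mitochondrial genes called on day 15 became 4 higher and 4 lower, and those on day 8 became 2 higher and 6 lower. Of all 10689 genes under quantile normalization, 3311 were called higher and 2673 lower on day 15, and 2700 and 2181 on day 8. Of all 10687 under the common median, 3088 were higher and 2786 lower on day 15, and 1765 and 3000 on day 8. The cytosolic split on day 15 was 15 higher and 1 lower under quantile normalization and 14 and 1 under the common median. On day 4 the common median left 2 cytosolic genes called higher of the 8, and 3 synthetases of the 13. It called 943 of all 10687 genes higher on that day. On day 24 the common median left 8 cytosolic genes called lower, where 3362 of all 10687 genes were.

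Values below are MAS5 signals, a probe set's brightness after each array was scaled to the same trimmed mean, and changes are log2 differences of group means with the standard error (SE) of the fit. Sars1, which charges serine tRNA, showed the largest rise. On day 15 its signals in the 5 controls were 277, 270.4, 231, 260.5 and 267, and at 80 mg/kg they were 934, 1000.0, 979, 1093 and 1039. The lowest dosed liver was above 3 times the highest control. The change was 1.95 ± 0.12 (SE, limma adjusted p = 4.03e-19). At 80 mg/kg it ran from 302 to 544 on day 4 and 392 to 633 on day 8, and every dosed array lay above all controls of its day (212 to 264 and 203 to 235). On day 24 the range was 202 to 281 against 212 to 296 in controls, and the groups overlapped.

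Iars1, the isoleucine enzyme of the multisynthetase complex, came next. Its day 15 signals were 183, 228, 213, 153 and 161 in controls and 470.4, 608, 556, 701 and 515 at 80 mg/kg, without overlap. The log2 change was 1.61 ± 0.13 (SE, limma adjusted p = 1.97e-15). A second and dimmer Iars1 probe set changed by 0.41 on day 15, with controls' SD of 0.48, so the probe sets of this gene differed in size of change.

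Gars1, whose single gene makes the glycine enzyme of both compartments, had day 15 signals of 566, 509, 449, 444 and 530.3 in controls. At 80 mg/kg they were 1182, 1227, 1199, 1455 and 1216, all above the controls. The log2 change was 1.33 ± 0.10 (SE, limma adjusted p = 3.24e-16), and its other probe set changed by 1.45. Kars1, the lysine enzyme of both compartments and a member of the complex, rose by 0.50 ± 0.055 (SE) with 416 to 476 in controls and 594 to 689 at 80 mg/kg.

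Yars1, the cytosolic tyrosine enzyme, had control signals of 256, 293, 286, 224 and 267 on day 15 and 577, 671, 582, 614 and 564 at 80 mg/kg. The groups lay far apart, and the log2 change was 1.18 ± 0.11 (SE, limma adjusted p = 9.72e-13). Nars1, which charges asparagine tRNA, had 353, 476, 449, 420.2 and 421 in controls and 782, 965, 865, 910.5 and 845 at 80 mg/kg. It also showed no overlap, with a log2 change of 1.05 ± 0.10 (SE, limma adjusted p = 1.30e-13).

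The measured enzymes of the multisynthetase complex rose together on day 15. All 7 were called higher: Iars1, Lars1 (leucine, 0.76), Mars1 (methionine, 0.73), Rars1 (arginine, 0.65), Qars1 (glutamine, 0.50), Kars1 and Eprs1 (glutamate and proline, 0.24), with a median log2 change of 0.65. Of the 11 cytosolic genes outside the complex, 9 were called higher and 1 lower, with a median of 0.60. Those not yet named were Vars1 (valine, 0.75), Wars1 (tryptophan, 0.68), Farsb and Farsa (the subunits of the phenylalanine enzyme, 0.60 and 0.53), Hars1 (histidine, 0.55) and Aars1 (alanine, 0.39). By structural class of the enzyme, 8 of 9 cytosolic genes of class I and 6 of 7 of class II were called higher. Of all genes, 38.8% were called higher on that day and 20.5% lower, and their median change was 0.16. Eprs1, which joins both classes, was called at adjusted p = 0.0094 by limma and not under the common median (0.436). Its second bright probe set changed by 0.42.

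**Figure D2:**
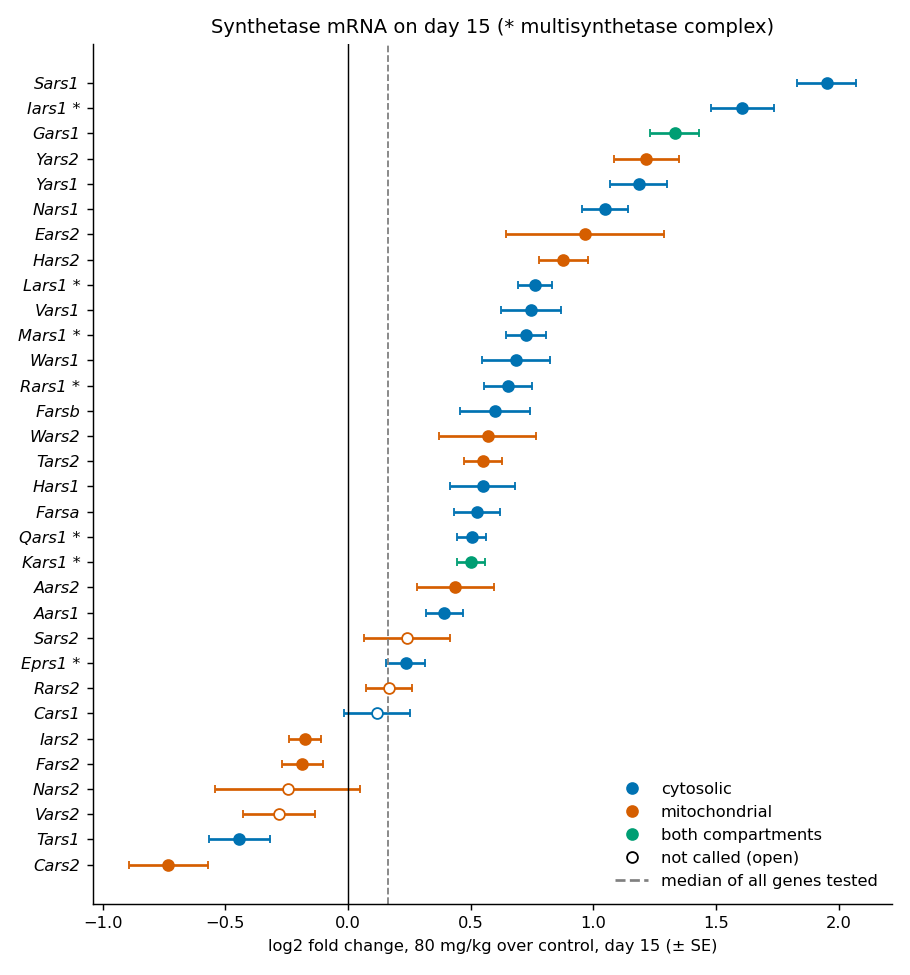
Log2 fold change on day 15 at 80 mg/kg over control for each synthetase, with the standard error of the fit as bars; colours give the compartment, filled points were called, asterisks mark the multisynthetase complex, and the dashed line is the median of all genes at 0.16. Sars1 (1.95) and Iars1 (1.61) lead, most cytosolic genes lie right of the dashed line, and Tars1 (-0.44) and Cars2 (-0.73) lie farthest left.

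The stretch before the transcription start is where ATF4 and its partners of the C/EBP family are known to bind their response element in some of these genes, so the promoters are shown for the genes with a match and for the gene with the largest rise. RefSeq promoter windows of assembly GRCr8 were matched for 30 of the 32 genes, and the 250 bases before the start were searched on both strands for the element's core, TGATGNAA. It was found in 5 of 16 cytosolic promoters and 0 of 13 mitochondrial ones, and in 3.27% of the 27457 promoters of the table. The following lines give the matches with up to 30 bases on each side, in the direction of transcription, with the core in capitals.
Iars1, chr17:15193653-15193706, minus strand: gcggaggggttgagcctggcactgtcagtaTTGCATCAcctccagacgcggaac
Nars1, chr18:60275783-60275826, minus strand: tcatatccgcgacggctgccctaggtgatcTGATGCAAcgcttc
Mars1, chr7:65023754-65023800, minus strand: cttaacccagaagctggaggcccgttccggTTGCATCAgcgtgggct
Aars1, chr19:55908340-55908407, plus strand: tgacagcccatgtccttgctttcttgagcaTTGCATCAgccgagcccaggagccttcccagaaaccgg
Tars1, chr2:62114803-62114859, minus strand: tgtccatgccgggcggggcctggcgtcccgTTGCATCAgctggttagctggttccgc

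All 5 matches held the same 8 letters, read as TTGCATCA on 4 promoters and as its reverse complement TGATGCAA on that of Nars1. They ended 7 to 105 bases before the start. The genes with a match changed by 1.61 (Iars1), 1.05 (Nars1), 0.73 (Mars1), 0.39 (Aars1) and -0.44 (Tars1) on day 15, so they included the cytosolic gene that fell. Sars1, with the largest rise, had no match in its window, and its last 100 bases before the start were 71% G or C.
Sars1, chr2:198769366-198769465, minus strand: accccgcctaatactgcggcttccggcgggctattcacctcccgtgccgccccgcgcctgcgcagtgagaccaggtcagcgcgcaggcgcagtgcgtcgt
The antioxidant response core TGACNNNGC was found in 25.0% of cytosolic, 15.4% of mitochondrial and 10.2% of all promoters, and the E-box CACGTG in 25.0%, 0.0% and 5.79%. In Aars1 these last motifs overlap each other, and no match of the ATF4 core overlapped another motif. A match is a description of the letters and was not tested as a binding site.

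The mitochondrial group was led by Yars2, the tyrosine enzyme. Its day 15 signals were 77.0, 93.5, 71.6, 76.3 and 75.6 in controls and 159, 218, 159.9, 215 and 169.8 at 80 mg/kg, without overlap. The log2 change was 1.22 ± 0.13 (SE, limma adjusted p = 2.28e-11). Yars2 was also called higher on day 4 (0.71) and day 8 (0.94).

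Hars2, the histidine enzyme, rose by 0.88 ± 0.10 (SE, limma adjusted p = 8.50e-11) on day 15. Its signals were 80.2, 64.3, 70.4, 70.4 and 75.7 in controls and 117, 138, 126, 147 and 135 at 80 mg/kg, with no overlap. Hars1 and Hars2 start back to back, with 143 bases between their annotated starts that serve as the upstream region of both, shown here on the strand of Hars2.
Hars1 and Hars2, chr18:28672713-28672855, plus strand: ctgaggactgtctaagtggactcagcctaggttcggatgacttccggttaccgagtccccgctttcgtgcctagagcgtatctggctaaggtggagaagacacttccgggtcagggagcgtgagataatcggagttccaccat
Hars1 had 86.7, 118, 101, 162 and 85.9 in controls and 149.8, 178, 145, 164 and 152 at 80 mg/kg. One control exceeded 3 of the 5 dosed livers, and the change was 0.55 ± 0.13 (SE, limma adjusted p = 0.000378).

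Tars2, the threonine enzyme, rose by 0.55 ± 0.076 (SE, limma adjusted p = 1.68e-08), from 167, 173, 158, 180.4 and 187 to 259, 262, 241, 247 and 257. Ears2 (glutamate, 0.96), Wars2 (tryptophan, 0.57) and Aars2 (alanine, 0.44) were called higher at low signals, with control ranges of 7.35 to 23.6, 23.9 to 31.0 and 20.6 to 32.0. Each of these 3 calls was lost without 1 array: adjusted p was 0.0589 for Ears2 without control replicate 5, 0.0510 for Wars2 without the dosed replicate 4 and 0.0610 for Aars2 without the dosed replicate 5. Another scaling also ended the calls of Wars2 and Aars2, and the probe sets of Wars2 differed on day 8 (-0.10 and 0.49).

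Cars2, which charges cysteine tRNA in mitochondria, showed the largest fall of all synthetases. Its day 15 signals were 148, 124, 124, 155 and 113 in controls and 89.5, 77.0, 84.2, 73.6 and 74.1 at 80 mg/kg, all below the controls. It fell by 0.73 ± 0.16 (SE, limma adjusted p = 9.87e-05), and by 0.71 ± 0.16 (SE, limma adjusted p = 0.000219) on day 8. Control signals of Cars2 differed by day, from 70.0 to 101 on day 4 to 141 to 184 on day 24, and at 80 mg/kg on day 24 they were 132 to 164.

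The other mitochondrial genes changed little or were dim. Iars2 (isoleucine) fell by 0.17 ± 0.066 (SE, limma adjusted p = 0.0209), from 189, 176, 177, 208 and 194 to 159, 160.3, 169.7, 172 and 175, all below the controls. Fars2 (phenylalanine) fell by 0.19 ± 0.082 (SE, limma adjusted p = 0.0482). The call of Iars2 was lost without control replicate 4 or dosed replicate 1 or 2 (highest adjusted p 0.0840). That of Fars2 was lost without any 1 of 7 arrays, all but control replicate 5 and dosed replicates 2 and 5 (highest 0.262). Vars2 (valine) had 65.6, 66.0, 47.4, 53.9 and 69.0 in controls and 58.5, 45.3, 46.1, 41.7 and 56.4 at 80 mg/kg, overlapping, with a change of -0.28 ± 0.15 (SE, limma adjusted p = 0.0913). Sars2 (serine) had 50.0, 21.8, 27.5, 30.9 and 30.7 and 40.2, 34.5, 28.6, 33.8 and 48.8, also overlapping, with a change of 0.24 ± 0.18 (SE, limma adjusted p = 0.244). Rars2 (arginine) changed by 0.17 ± 0.10 (SE, limma adjusted p = 0.128).

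Nars2, the mitochondrial asparagine enzyme, was dim on the days of dosing. Its day 15 signals were 15.0, 14.5, 8.01, 8.75 and 12.1 in controls and 6.22, 11.4, 9.03, 12.9 and 9.51 at 80 mg/kg. The groups overlapped, and the change was -0.25 ± 0.30 (SE, limma adjusted p = 0.49). Over all doses its signal was 4.09 to 15.8 on the 44 arrays of days 4 to 15 and 28.1 to 63.0 on the 13 arrays of day 24. It passed the filter on low signals, which asks for 4 arrays above the median of all values (17.1), through those 13 arrays. All 32 synthetases passed that filter. Ears2 was above that median in 43 arrays, Wars2 in 55 and the others in all 57.

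Tars1 was the 1 cytosolic synthetase called lower on day 15. It makes the cytosolic threonine enzyme. Its day 15 signals were 757, 867, 868, 999 and 922 in controls and 659, 569, 617, 687 and 711 at 80 mg/kg, all below the controls. It fell by 0.44 ± 0.12 (SE, limma adjusted p = 0.00189). On day 8 it fell by 0.29 ± 0.12 (SE, limma adjusted p = 0.0499), a call that was lost without any 1 of 7 arrays (control replicates 1 to 3, dosed replicates 1 to 4; highest adjusted p 0.148). Cars1, the cytosolic cysteine enzyme, was not called on day 15, with 185, 206, 151, 148 and 178 in controls, 169.9, 204, 191, 185 and 187 at 80 mg/kg and a change of 0.12 ± 0.14 (SE, limma adjusted p = 0.464). Its other probe sets changed by 0.25, 0.42 and 0.19.

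**Figure D3:**
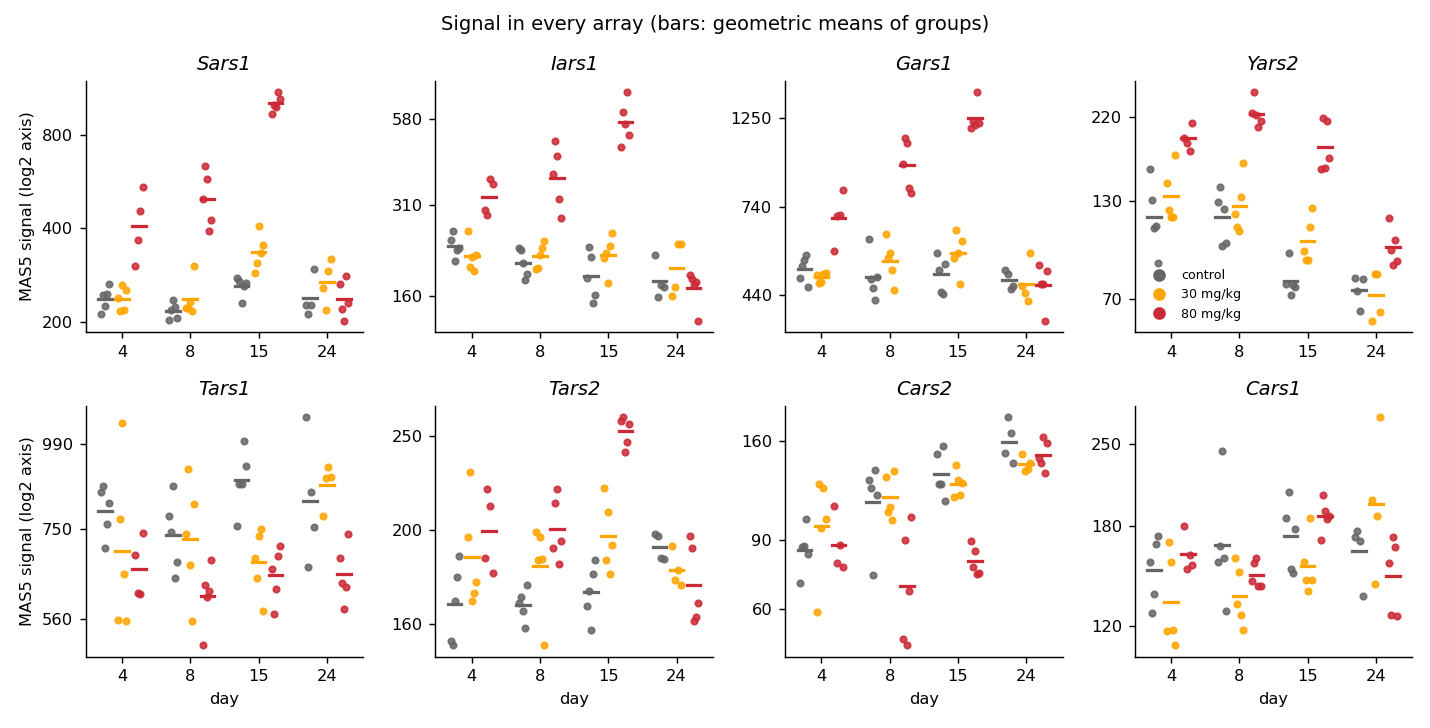
Signal in every array (points, log2 axis) by day for 8 synthetases, with grey for controls, orange for 30 mg/kg and red for 80 mg/kg; bars are the geometric means of groups. The red points of Sars1, Iars1, Gars1 and Yars2 all lie above the grey ones on days 4 to 15, and on day 24 those of Yars2 alone still do, whereas Tars1 and Cars2 lie below the controls on day 15.

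Where an amino acid has a cytosolic and a mitochondrial enzyme, their log2 difference within an array is not changed by a single scaling factor for the array, such as the common median, though quantile normalization can change it. For 14 such pairs, counting Farsa and Farsb each with Fars2 and Eprs1 with Ears2, the log2 difference of the cytosolic minus the mitochondrial gene was compared with its mean in controls. On day 15 at 80 mg/kg, 8 pairs lay above all controls in each of the 5 dosed livers, 1 lay below all controls in each, and 5 overlapped. The share of other gene pairs that separate so was not worked out, and these counts have no background beside them. On that day 38.8% of all genes were called higher and 20.5% lower. The pairs of Farsa and Farsb share Fars2 and are not separate cases. The 8 include Nars1 with Nars2, and Nars2 was under the filter's median of 17.1 on every day 15 array, so the shift of that pair is not read as a difference between the compartments. The isoleucine pair moved the most, with a mean shift of 1.78 and dosed livers from 1.58 to 2.05, where controls spanned -0.42 to 0.40. The serine pair shifted by 1.71 and the valine pair by 1.03. A second Vars1 probe set, above the median of 17.1 in 5 arrays, changed by 0.21 on day 15, against 0.75 for the one used. With its probe sets averaged, Vars1 lost its calls on day 4, for 80 against 30 mg/kg and for day 24 minus day 15. The limma adjusted p was then 0.556, 0.702 and 0.183. The asparagine pair, with its dim Nars2, shifted by 1.29.

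The cysteine pair shifted by 0.85, Cars2 having fallen and Cars1 having changed by 0.12. The phenylalanine pairs shifted by 0.78 (Farsb) and 0.71 (Farsa) and the arginine pair by 0.48. The threonine pair ran the other way, with a mean shift of -0.99 and dosed livers from -1.23 to -0.87 against -0.17 to 0.12 in controls. The tyrosine pair hardly shifted (-0.032), both genes having risen. The alanine (-0.045), tryptophan (0.12), histidine (-0.33) and glutamate (-0.73) pairs also overlapped with controls. These shifts are given as a description without a test, and 3 pairs on day 4 and 5 on day 8 lay wholly above the controls, with 1 wholly below on each of these days, that of threonine. On day 24, 0 lay wholly above and 2 wholly below, the alanine pair (-0.41) and the tyrosine pair (-0.62). For days 4, 8 and 24 too, the share of other gene pairs was not worked out.

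**Figure D4:**
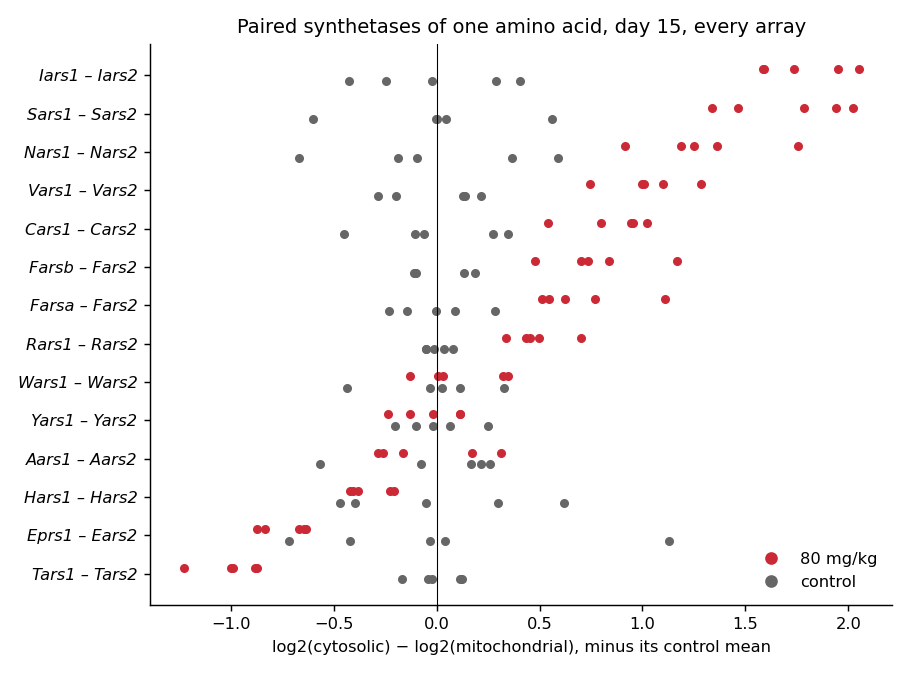
Log2 signal of the cytosolic minus the mitochondrial synthetase of an amino acid on day 15, less its mean in controls, for each of the 5 controls (grey) and the 5 livers at 80 mg/kg (red). In the 8 upper pairs all red points lie right of all grey points (Nars2 of the asparagine pair is dim), and in Tars1 with Tars2 all lie left. The share of other gene pairs that separate so was not worked out.

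On day 4 the rises were smaller. The largest were Sars1 (0.78 ± 0.13 (SE, limma adjusted p = 6.51e-06)), Yars2 (0.71 ± 0.14 (SE, limma adjusted p = 9.06e-05)), Iars1 (0.51 ± 0.14 (SE, limma adjusted p = 0.00354)) and Vars1 (0.47 ± 0.13 (SE, limma adjusted p = 0.0043)). The calls of Sars1 and Yars2 held under every alternative run, and the other 11 were lost under at least 1. Leaving out 1 array ended those of Yars1 (any but control replicate 3 and dosed replicate 4), Rars1 (6 arrays: control 1, 3 and 4, dosed 3, 4 and 5), Tars2 (control 1 and 2, dosed 3 and 4), Farsa (control 1, dosed 2 and 5) and Hars2 (dosed 5). The adjusted p then reached 0.247, 0.186, 0.0882, 0.113 and 0.0840.

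On day 8 the 4 largest rises were Sars1 (1.19 ± 0.12 (SE, limma adjusted p = 1.27e-11)), Gars1 (0.95 ± 0.10 (SE, limma adjusted p = 4.87e-11)), Yars2 (0.94 ± 0.13 (SE, limma adjusted p = 4.23e-08)) and Iars1 (0.89 ± 0.13 (SE, limma adjusted p = 8.95e-08)). The 4 genes called lower were Cars2, Vars2 (-0.36 ± 0.15 (SE, limma adjusted p = 0.0342)), Tars1 and Iars2 (-0.16 ± 0.066 (SE, limma adjusted p = 0.0425)). Vars2 lost its call without control replicate 1, 3, 4 or 5 or dosed replicate 2 or 3 (highest adjusted p 0.136). Iars2 lost it without control replicate 3 or 4 or dosed replicate 2, 3 or 4 (0.166), Farsb without control 3 or dosed 2 or 4 (0.134) and Mars1 without dosed 2 (0.0508).

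The effect of 80 mg/kg grew between days 4 and 15. Compared directly, 14 synthetases had a higher effect on day 15 than on day 4 and 1 a lower one, where 14.3% of all genes were called higher and 10.1% lower. The largest differences were Sars1 (1.18 ± 0.18 (SE, limma adjusted p = 2.20e-06)), Iars1 (1.10 ± 0.19 (SE, limma adjusted p = 1.74e-05)), Gars1 (0.90 ± 0.15 (SE, limma adjusted p = 8.93e-06)) and Yars1 (0.86 ± 0.17 (SE, limma adjusted p = 0.000115)), and Cars2 was the lower one (-0.77 ± 0.23 (SE, limma adjusted p = 0.0115)). The common median left 9 synthetases higher, where 1251 of all 10687 genes were. Of the 15 calls, 9 held under every alternative run. Leaving out 1 of the 19 arrays ended the call of Rars1 in 15 runs, Yars2 in 11, Tars2 in 10 and Aars1 in 1. The limma adjusted p then reached 0.145, 0.127, 0.0974 and 0.0523.

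After recovery the effect was smaller than on day 15 for most of the genes that had risen. Between days 15 and 24 it was called lower for 20 synthetases and higher for 1, Cars2 (0.62 ± 0.23 (SE, limma adjusted p = 0.0275)), against 26.1% and 16.6% of all genes. The largest decreases were in Sars1 (-1.95 ± 0.18 (SE, limma adjusted p = 1.59e-12)), Iars1 (-1.68 ± 0.19 (SE, limma adjusted p = 3.10e-10)), Yars1 (-1.42 ± 0.17 (SE, limma adjusted p = 1.39e-09)) and Gars1 (-1.38 ± 0.15 (SE, limma adjusted p = 1.14e-10)). The call of Cars2 was lost without control replicate 4 of day 15 or control replicate 2 or 5 of day 24 (highest adjusted p 0.0620).

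Set against the controls of day 24 itself, Aars1 and Iars2 were lower. Aars1 had 1058, 1031, 1026 and 1087 in the 4 controls and 821, 844, 861, 797 and 829 in the 5 livers that had received 80 mg/kg, all below the controls. It was lower by 0.34 ± 0.081 (SE, limma adjusted p = 0.00518). Iars2 had 136, 112, 129 and 124 in controls and 109, 114, 109, 92.6 and 107, with 1 overlap, and was lower by 0.24 ± 0.07 (SE, limma adjusted p = 0.0233). Its call was lost without control replicate 2 or 4 or dosed replicate 4 (highest adjusted p 0.101), and without the 2 arrays of day 24 with the highest ratio of actin 3' to 5' signal (0.0603). Under the common median the median gene was lower by 0.21 (log2 change -0.21) on day 24. There, 14 synthetases were called lower, as were 3362 of all 10687 genes. Yars2 had 79.9, 73.4, 64.9 and 79.4 in controls and 116, 95.2, 86.5, 101 and 88.8 after 80 mg/kg, without overlap, but its change of 0.39 ± 0.14 (SE, limma adjusted p = 0.0603) was not called.

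**Figure D5:**
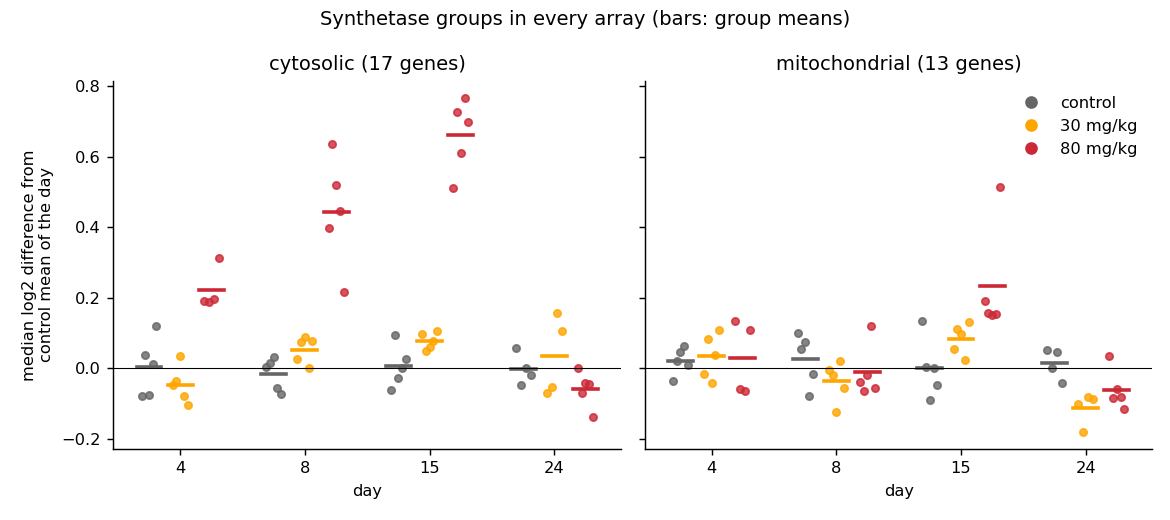
Median over the cytosolic (left) and mitochondrial (right) synthetases of the log2 difference from the control mean of the day, for every array; grey is control, orange 30 mg/kg, red 80 mg/kg, and bars are group means. All cytosolic medians at 80 mg/kg on days 4, 8 and 15 (0.19 to 0.31, 0.22 to 0.64 and 0.51 to 0.77) lie above the controls of their day, which reach 0.12, 0.031 and 0.094. The median over all genes tested, not drawn, also lay above its controls in these arrays (0.071 to 0.12, 0.13 to 0.17 and 0.14 to 0.23).

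Taken per array, the median over the cytosolic genes was 0.22 ± 0.061 (SD, n = 4) on day 4, 0.44 ± 0.16 (SD, n = 5) on day 8 and 0.66 ± 0.10 (SD, n = 5) on day 15 at 80 mg/kg. Each of these 14 livers lay above all controls of its day. The median over all genes tested did so too, at 0.071 to 0.12, 0.13 to 0.17 and 0.14 to 0.23 in these livers. For that median the controls of the 3 days reached 0.031, 0.014 and 0.022. The separation alone is thus not particular to the synthetases. The mitochondrial median was 0.029 ± 0.11, -0.012 ± 0.076 and 0.23 ± 0.16 on the same days. On day 15 it was 0.15 to 0.19 in 4 livers and 0.51 in replicate 5, and the highest control reached 0.13.

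At 30 mg/kg the synthetases stayed near control. Called higher and lower were 0 and 0 on day 4 (0.531% and 0.252% of all genes), 0 and 0 on day 8 (0.177% and 0.0559%), 1 and 0 on day 15 (2.71% and 1.88%) and 0 and 0 on day 24 (0.0466% and 0.0466%). With limma p unadjusted and under 0.05 there were 2, 3, 6 and 1 of the 32 synthetases on the 4 days. Of all 10725 genes, 1484, 1148, 2003 and 1093 were under it, so by this count the synthetases did not stand out. The 1 call was Yars1 on day 15, with 376, 303, 344, 287 and 436 at 30 mg/kg and a change of 0.39 ± 0.11 (SE, limma adjusted p = 0.0384). It was lost without control replicate 1, 4 or 5 or dosed replicate 1, 3 or 5 (highest adjusted p 0.161) and under the common median.

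Sars1 and Tars1 did not pass at 30 mg/kg on day 15, but their arrays were separate from controls. Sars1 had 288, 311, 406, 334 and 353, above all 5 controls, with a change of 0.37 ± 0.12 (SE, limma adjusted p = 0.0637). Tars1 had 683, 639, 735, 752 and 576, below all 5 controls, with a change of -0.38 ± 0.12 (SE, limma adjusted p = 0.0585). Its mitochondrial counterpart Tars2 had 221, 186, 209, 180.2 and 193 and a change of 0.19 ± 0.076 (SE, limma adjusted p = 0.137).

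Compared with 30 mg/kg directly on day 15, 80 mg/kg gave 21 synthetases higher and 2 lower, against 37.0% and 18.3% of all genes. The largest were Sars1 (1.58 ± 0.12 (SE, limma adjusted p = 1.07e-15)), Iars1 (1.38 ± 0.13 (SE, limma adjusted p = 4.84e-13)), Gars1 (1.15 ± 0.10 (SE, limma adjusted p = 8.66e-14)) and Ears2 (1.09 ± 0.32 (SE, limma adjusted p = 0.00359)). Cars2 (-0.65 ± 0.16 (SE, limma adjusted p = 0.000565)) and Fars2 (-0.21 ± 0.082 (SE, limma adjusted p = 0.0266)) were the lower ones. Tars1 differed by -0.06 between the doses, with an adjusted p of 0.706 by limma. Without replicate 4 of 30 mg/kg the change of Ears2 was 0.54 (adjusted p 0.0665), no longer called and below those of Nars1 (0.86), Yars2 (0.86) and Wars1 (0.82) in all arrays. In that replicate its signal was 2.96 against 17.1 to 21.9 in the other 4. Fars2 lost its call without replicate 2 or 4 of 30 mg/kg or 3 of 80 mg/kg (up to 0.169), Wars2 without 30 mg/kg replicate 5 or 80 mg/kg replicate 4 (up to 0.116) and Farsb without 30 mg/kg replicate 1 (0.0572).

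Within groups, the signals of cytosolic synthetases were weakly correlated with each other. After the mean of each group was taken away, the median correlation over pairs of cytosolic genes was 0.19 across the 57 arrays, against 0.024 among mitochondrial genes and -0.0092 between the groups. Each gene was also set against the median of the cytosolic genes other than itself. Nars1 (r = 0.72), Aars1 (0.65) and Mars1 (0.65) followed that median most closely. Tars1 had 0.15 and Cars2 -0.23. Arrays share their scaling and RNA quality, and these values are a description.

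Many genes that work beside the synthetases were also called higher. Of 31 genes listed for tRNA charging, 28 were measured, and 16, 20 and 21 were called higher at 80 mg/kg on days 4, 8 and 15 with 1 lower each day, where 18.3%, 34.2% and 38.8% of all genes were called higher. The list's median was 0.56 on day 15, and that of all genes 0.16. The largest rises on day 15 were Xpot, which exports tRNA from the nucleus (1.56 ± 0.11 (SE, limma adjusted p = 1.50e-16)), Eef1e1 (1.34 ± 0.13 (SE, limma adjusted p = 1.31e-12)) and Aimp1 (1.32 ± 0.14 (SE, limma adjusted p = 5.58e-12)), scaffold proteins of the complex, and Qrsl1 (1.31 ± 0.18 (SE, limma adjusted p = 1.09e-08)), a subunit of the mitochondrial enzyme that turns glutamate into glutamine on its tRNA. Sepsecs, the last enzyme of selenocysteine synthesis on its tRNA, was the 1 called lower (-0.50 ± 0.074 (SE, limma adjusted p = 9.25e-08)). On day 24, 1 was called higher, Pstk (0.45), where 7.15% of all genes were.

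Genes of the ATF4 and amino acid response rose by larger amounts at the median. Of 27 listed, 26 were measured. At 80 mg/kg 13, 17 and 21 were called higher and 1, 1 and 2 lower on days 4, 8 and 15, where 18.3%, 34.2% and 38.8% of all genes were higher and 9.19%, 16.6% and 20.5% lower. The list's median was 1.90 on day 15, where the cytosolic synthetases had 0.65 and all genes 0.16. The largest were Phgdh, of serine synthesis (6.48 ± 0.71 (SE, limma adjusted p = 3.61e-11)), Trib3, an inhibitor of ATF4 (4.89 ± 0.34 (SE, limma adjusted p = 1.56e-17)), the hormone Fgf21 (4.69 ± 0.36 (SE, limma adjusted p = 7.12e-16)) and the transcription factor Atf3 (4.00 ± 0.55 (SE, limma adjusted p = 1.57e-08)), and Cth (-0.34 ± 0.13 (SE, limma adjusted p = 0.0261)) and Shmt2 (-0.23 ± 0.074 (SE, limma adjusted p = 0.00759)) were lower. At 30 mg/kg on day 15, 13 of the 26 were called higher, where 1 of the 32 synthetases and 2.71% of all genes were. Both doses share the control arrays.

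Markers of other cells moved on the same days. The summed signal of 5 biliary markers on the array was 854 to 1193 at 80 mg/kg on day 15 against 172 to 241 in controls. Most of that sum was Epcam, with group means of 851 and 160. All 4 that passed the filter were called higher. Cldn4 and Cldn7 had means of at most 9.8 and 9.61 in any control or 30 mg/kg group, under the filter's median of 17.09. Their highest means were 31.6 and 50.3, at 80 mg/kg on day 15. Genes this dim elsewhere pass the filter mostly through the 80 mg/kg arrays, so their calls were partly set by it. Of 6 macrophage markers 4 were called higher, the sum being 3100 to 3794 against 1991 to 2329. Of 7 hepatocyte markers 4 were called lower and 1 higher. Of all genes, 38.8% were called higher and 20.5% lower on that day. On day 15, 1 of 5 stellate and fibroblast markers was called higher and 1 lower, and 1 of 3 endothelial markers lower. On day 24, when 0 synthetases were called higher and 2 lower, 5 macrophage and 2 biliary markers were called higher, against 7.15% of all genes. So were 4 of the 5 stellate and fibroblast markers and 1 of the 3 endothelial ones. Of 2 lymphocyte and plasma cell markers that passed the filter, 0 were called on either day. In whole tissue a change in the number of cells and a change of RNA per cell cannot be told apart, and the part of these cells in the synthetase values was not tested. The 8 markers of pancreatic acinar cells summed to 896 to 1193 in controls and 906 to 1118 at 80 mg/kg on day 15. Of these, Prss1, Cpa1, Cela2a and Ctrb1 had mean signals of at most 8.02 in any group. Pnlip ranged from 7.88 to 13.2, Cpb1 from 12.9 to 39.7 and Cela1 from 637 to 1236. Amy2a3 ranged from 6.34 at 80 mg/kg on day 15 to 82.0 in controls of day 4. None of the 3 that passed the filter (Amy2a3, Cela1 and Cpb1) was called on day 15, where Amy2a3 changed by -2.60 ± 1.27 (SE, limma adjusted p = 0.0754).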

How the data were processed

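Total liver RNA was labelled with biotin and hybridised to Affymetrix arrays, 1 sample per array. The deposited intensity values are MAS5 signals of 31099 probe sets per array, per the submitters' processing notes, which give no version. The trimmed mean (2% off each end) was 99.99 on each of the 57 arrays. Of the probe sets, 57 were controls, 20826 had 1 gene symbol in the platform annotation, 436 several and 9837 none, and 20758 of the first matched a RefSeq gene of GRCr8. The signals were taken to log2 without further scaling. A gene was kept with at least 4 arrays above the median of all values (17.09), which left 10725 genes.

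limma 3.58.1 in R 4.3.3 was fitted over the 12 groups with a variance trend, and p was adjusted by Benjamini-Hochberg over all genes, with calls under 0.05. Promoters, counts and plots used Python 3.11.15, pandas 2.3.3, numpy 2.4.6 and matplotlib 3.10.9. The scripts were tested on simulated data. Values are named for the 4 largest called changes each way in a comparison, and signals per array for the 6 largest rises and 4 lowest changes on day 15 and for genes of compared pairs. The members, lists and rules were chosen with earlier results of these data known. Alternatives were other scalings, probe set rules, filters and fits, and each array left out. Histology was not used here. No 2 arrays held identical values, and the highest correlation between arrays was 0.949. The number of arrays limits the precision.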

Additional observations from a re-analysis of the deposited data

Results flagged for a closer look

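In 76 groups checked for an array far from the rest, 5 had one, where chance gives about 1 in 20. In each case the value given is the gap to the nearest array over the range of the group. Gars1 at 80 mg/kg on day 15 was higher in replicate 4 (0.819), with a signal of 1455 against 1182 to 1227. Yars2 in controls of day 15 was higher in replicate 2 (0.727), at 93.5 against 71.6 to 77.0. The cytosolic median at 80 mg/kg on day 4 stood apart in replicate 5 (0.925). The mitochondrial median stood apart at 80 mg/kg in replicate 4 on day 8 (0.760) and in replicate 5 on day 15 (0.888).

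The effect of 80 mg/kg differed between days in limma's test of the difference. From day 4 to day 15 it differed by 1.18 for Sars1, 1.10 for Iars1, 0.90 for Gars1, 0.86 for Yars1 and -0.77 for Cars2. From day 15 to day 24 it differed by -1.95 for Sars1, -1.68 for Iars1, -1.42 for Yars1, -1.38 for Gars1 and 0.62 for Cars2.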

How the results depend on the processing

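No result changed direction while called, and of 123 calls of single synthetases 80 held under every alternative run. With arrays shifted to a common median, the cytosolic medians at 80 mg/kg were 0.12, 0.22, 0.52 and -0.33 on days 4, 8, 15 and 24. The mitochondrial ones were -0.093, -0.32 and -0.36 on days 4, 8 and 24. Calls of synthetases became 3 higher and 1 lower on day 4, 8 lower on day 8 and 14 lower on day 24. Of all 10687 genes, 943 were higher and 1598 lower on day 4, 3000 lower on day 8 and 3362 lower on day 24. Synthetases called higher were 0 at 30 mg/kg on day 15, 9 for day 15 minus day 4 and 0 for day 24 minus day 15. In these 3 comparisons 159, 1251 and 1222 of all genes were called higher. Quantile normalization gave a cytosolic median of 0.54 on day 15 and mitochondrial medians of -0.28 on day 8 and 0.040 on day 15. It gave 4 synthetases lower for 80 against 30 mg/kg, 2 lower for day 15 minus day 4 and 2 higher for day 24 minus day 15. The same calls fell on 2380, 1120 and 2099 of all 10689 genes. Averaging all probe sets of each gene gave cytosolic medians of 0.53 on day 15 at 80 mg/kg and 0.17 at 30 mg/kg. Its mitochondrial medians were -0.053 on day 24 at 80 mg/kg, and -0.026 on day 4 and -0.071 on day 15 at 30 mg/kg. Fitting only the groups compared gave 1 lower on day 4, 2 on day 8 and 1 on day 24 at 80 mg/kg, 1 on day 15 at 30 mg/kg and 1 for 80 against 30 mg/kg. With no filter 2 synthetases were lower on day 8, where 1748 of all 14217 genes were. Without the 2 day 24 arrays of highest actin ratio, chosen after seeing the data, 1 was lower on day 24. The causes were not tested.

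Leaving out 1 array gave 1 to 4 lower on day 8, 2 to 4 on day 15 and 1 to 3 on day 24 at 80 mg/kg. The mitochondrial median ran from 0.14 to 0.41 on day 15 (0.41 without control replicate 1) and from -0.15 to -0.011 on day 24. At 30 mg/kg on day 15 calls ran from 0 to 2 higher and 0 to 1 lower, and the cytosolic median from 0.021 to 0.089. On day 8 the medians ran from 0.030 to 0.090 (cytosolic) and -0.054 to 0.032 (mitochondrial). For 80 against 30 mg/kg 1 to 2 were lower, and for day 24 minus day 15 0 to 1 higher.

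Samples of a day share only a replicate number: 0 of 54 same-numbered pairs had deviations correlated above 0.1. With the replicate block, 2 synthetases in place of 4 were lower on day 8 and 11 in place of 13 higher on day 4. Dim genes (Nars2, Ears2, Wars2) are limited by their signal.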
